A study of Mus musculus with 15 samples.

Results

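The macrophage genes of the mouse kidney were followed here in 10 of the 33058 gene names with a usable transcript: Csf1r, Adgre1, Itgam, Tyrobp, Cd68, Lyz2, Mrc1, Cd163, Cd14 and Fcgr1. They were chosen by name as markers of these cells. The rule uses no measured value, but the choice was made with earlier results of these data known. Levels are in FPKM, the number of sequenced fragments divided by transcript length and by library size. The value of a gene was the sum over its transcripts of class codes =, c, j or o, that is, those that match, lie within or share exon structure with an annotated gene. All 10 were above 0 in at least 11 of the 15 mice, and all 10 entered every comparison.

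The RNA came from kidneys of 15 male C57BL/6 mice, 5 each at 3, 12 and 24 months of age. All were kept on standard rodent chow, and the labels give no genotype and no treatment. The methods of the study name C57BL/6J and describe mice of 3 and 24 months only. The question was how the kidney transcriptome differs with age. The ratio of coverage to FPKM gave 5.03 to 6.13 Gb of aligned bases per mouse at 3 months, 5.84 to 8.03 Gb at 12 months and 6.07 to 7.33 Gb at 24 months. The 11 tubule and podocyte genes checked were all present, with a summed level of 2600.1 to 3264 FPKM per mouse. The tissue was sequenced in bulk, so fewer macrophages and less RNA per macrophage cannot be told apart.

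Macrophages are phagocytes of the innate immune system. In the kidney they lie in the interstitium between the tubules, where resident cells seeded early in life are joined by cells derived from blood monocytes. They depend on the growth factors CSF1 and IL-34, which both signal through the receptor encoded by Csf1r, and they clear debris, sense microbes and take part in scarring. Their identity is set by the transcription factor PU.1, encoded by Spi1, which binds purine-rich DNA around the letters GAGGAA.

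No member passed the test between any of the ages (adjusted p under 0.05 in limma). For 12 against 3 months 9 of 10 members had a positive difference in mean log2 level, where 64.0% of all genes had one, and 4 (Tyrobp, Lyz2, Fcgr1 and Itgam) had an unadjusted p under 0.05, against 14.3% of all genes. For 24 against 3 months 8 of 10 differences were positive, against 63.0% of all genes, and Itgam was the member with an unadjusted p under 0.05, against 14.9%. For 24 against 12 months 9 of 10 differences were negative, where 48.6% of all genes had a positive one. Among 28 other macrophage genes Irf8, which encodes a transcription factor, passed the test for 24 against 3 months. This call was lost in 8 of 10 fits without 1 mouse and in 2 of 10 fits with other processing.

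RefSeq held a promoter for 6 of the 10 members (Cd68, Lyz2, Mrc1, Itgam, Fcgr1 and Cd163). The letters GAGGAA, or TTCCTC on the other strand, stood in the 250 bases before the start in 4 of these 6, against 7639 of 32851 promoters of all genes (23.3%). They occurred 3 times in Mrc1, 2 times in Itgam, and 1 time each in Cd68 and Fcgr1. A match of these letters is a description and not a binding site. Values for 12 against 3 months are given beside the letters, and a relation between them was not tested. Lyz2 had no match and an unadjusted p of 0.0206 by limma. Mrc1 and Cd68 had the letters, with unadjusted p-values of 0.0737 and 0.771 by limma. The windows of Itgam and Fcgr1 are shown as those of members with the letters and an unadjusted p under 0.05 for 12 against 3 months, and that of Cd163 as a member without the letters. They are given 5′ to 3′ on the strand of the gene (GRCm38.p6), with the letters in capitals: Itgam on the plus strand at chr7:128062390-128062639, Fcgr1 on the minus strand at chr3:96293970-96294219, and Cd163 on the plus strand at chr6:124304401-124304650.
Itgam: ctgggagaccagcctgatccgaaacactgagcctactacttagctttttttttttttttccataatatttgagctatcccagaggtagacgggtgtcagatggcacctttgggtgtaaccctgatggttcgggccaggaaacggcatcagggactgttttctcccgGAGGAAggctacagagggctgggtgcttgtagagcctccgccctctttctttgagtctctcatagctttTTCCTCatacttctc
Fcgr1: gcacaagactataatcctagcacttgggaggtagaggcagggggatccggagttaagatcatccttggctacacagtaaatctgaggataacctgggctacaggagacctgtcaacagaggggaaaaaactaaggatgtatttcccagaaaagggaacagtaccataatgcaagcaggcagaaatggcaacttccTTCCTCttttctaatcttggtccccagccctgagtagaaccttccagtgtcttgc
Cd163: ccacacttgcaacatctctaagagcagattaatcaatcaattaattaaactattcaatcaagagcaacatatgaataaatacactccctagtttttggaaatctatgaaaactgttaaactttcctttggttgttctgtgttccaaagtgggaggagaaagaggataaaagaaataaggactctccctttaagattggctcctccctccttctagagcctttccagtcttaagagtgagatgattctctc

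The levels of the members spanned more than 2 orders of magnitude, from a median over 15 mice of 16.9 FPKM for Lyz2 to 0.0706 FPKM for Cd14. Between them stood Csf1r (9.38), Tyrobp (3.07), Adgre1 (2.35), Mrc1 (1.42), Itgam (1.30), Fcgr1 (0.483), Cd68 (0.193) and Cd163 (0.127). Csf1r exceeded Tyrobp, Adgre1 exceeded Mrc1, and Itgam exceeded Fcgr1 in 15 of 15 mice. Other neighbours in this order did not separate: Lyz2 was above Csf1r in 10 mice, Mrc1 above Itgam in 9, and Cd68 above Cd163 in 8. Among all genes with a median above 0, the level of Lyz2 was at percentile 89.8 and that of Csf1r at 81.1, whereas that of Cd14 was at 14.3.

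The lowest members rested on very few reads. Aligned bases had a median of 0.612 kb per mouse for Cd14, 1.09 kb for Cd68, 3.82 kb for Cd163 and 8.19 kb for Fcgr1, where a read pair of 2 × 150 bases covers 300 bases. Tyrobp, though higher in FPKM, had a median of 12.8 kb (4.48 to 29.1 kb). By contrast, Csf1r had a median of 363 kb and Lyz2 of 160 kb. The value of Cd14 counts its annotated transcript only and leaves out a single-exon transcript described below. Differences in Cd14, Cd68 and Cd163 may have been missed, and the size of difference that could be detected at this depth was not tested.

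**Figure D1:**
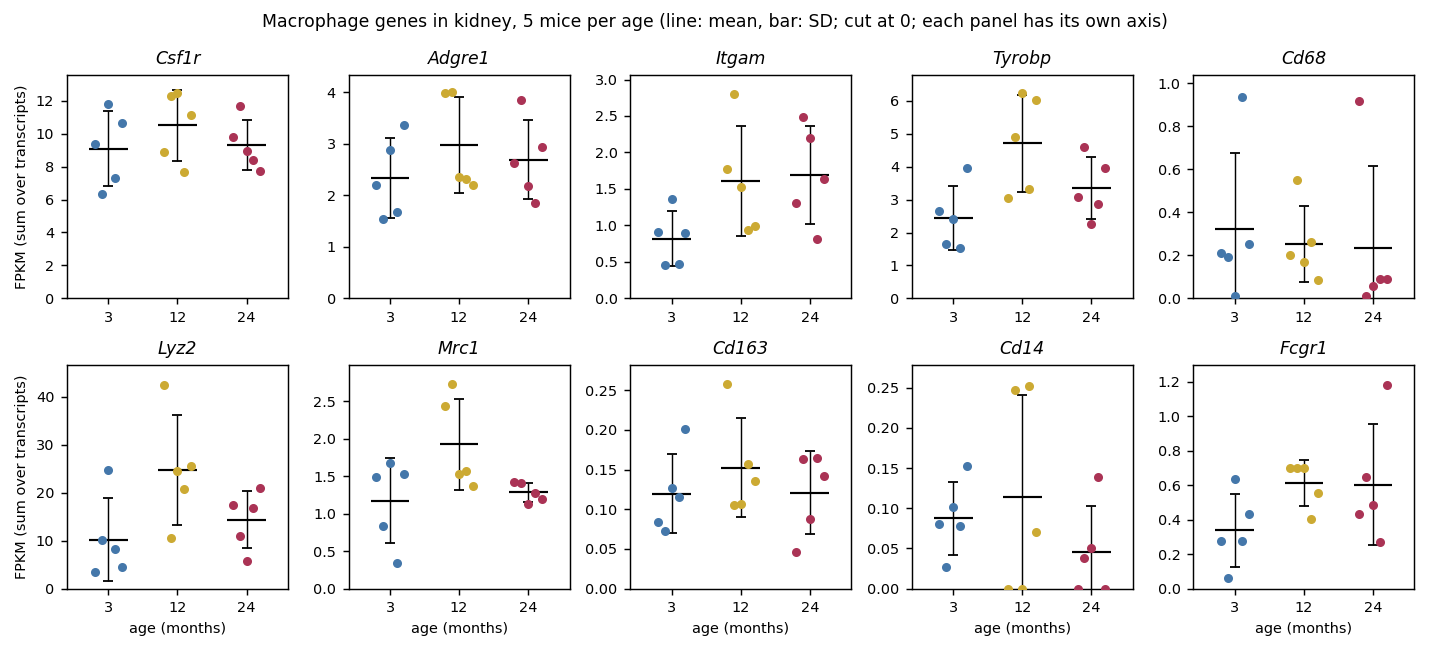
FPKM of the 10 macrophage genes (y axis, sum over transcripts) by age in months (x axis); points are mice, lines are means and bars are SD (n = 5), cut at 0. The values of the 3 ages overlap in every panel, and the 12-month-old mice include the highest value of Lyz2 (42.5 FPKM), Tyrobp (6.24) and Mrc1 (2.72).

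Csf1r encodes the receptor for CSF1 and IL-34, on which the survival of kidney macrophages depends. Its FPKM was 9.38, 6.33, 11.8, 7.30 and 10.7 in the 3-month-old mice, 8.90, 12.3, 12.5, 7.67 and 11.1 in the 12-month-old mice, and 9.79, 11.7, 8.97, 8.41 and 7.74 in the 24-month-old mice. The 3 ages overlapped widely. The difference from 3 months was 0.20 on the log2(FPKM + 1) scale at 12 months (95% CI -0.21 to 0.61) and 0.050 at 24 months (95% CI -0.32 to 0.42), with adjusted p-values of 0.655 and 0.904 by limma.

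Adgre1 encodes F4/80, the surface protein by which mouse macrophages are commonly stained. Its FPKM was 2.19, 1.54, 2.88, 1.68 and 3.36 at 3 months, 3.98, 4.01, 2.35, 2.32 and 2.21 at 12 months, and 2.63, 3.86, 2.18, 1.85 and 2.94 at 24 months. All 5 mice of 12 months lay above the median of the 3-month-old mice, though 3 of them only narrowly. The differences from 3 months were 0.25 at 12 months (95% CI -0.20 to 0.71) and 0.16 at 24 months (95% CI -0.28 to 0.59), with adjusted p-values of 0.621 and 0.727.

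Itgam encodes CD11b, an integrin chain that pairs with CD18 as complement receptor 3 on monocytes, macrophages and neutrophils. Its FPKM was 0.907, 0.456, 1.36, 0.469 and 0.896 in the 3-month-old mice, 1.78, 2.80, 1.53, 0.942 and 0.995 in the 12-month-old mice, and 1.30, 2.49, 2.20, 0.819 and 1.64 in the 24-month-old mice. At each of the older ages 3 of 5 mice exceeded every 3-month-old mouse, and the groups still overlapped. The level on the log2(FPKM + 1) scale was higher by 0.50 ± 0.22 (SE) at 12 months and by 0.55 ± 0.21 at 24 months, or 1.42- and 1.47-fold in FPKM + 1. Unadjusted p-values were 0.0441 and 0.0263, adjusted p-values 0.334 and 0.256 by limma, and exact permutation p-values 0.0397 and 0.0556. With a pseudocount of 0.1 FPKM the differences were 0.89 and 0.97 (adjusted p = 0.310 and 0.247 by limma).

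Tyrobp encodes DAP12, the membrane adaptor through which TREM2 and related receptors signal to the kinase SYK. Its FPKM was 2.67, 1.66, 2.40, 1.53 and 3.97 at 3 months, 3.06, 4.90, 6.24, 3.31 and 6.03 at 12 months, and 3.07, 4.60, 2.25, 2.85 and 3.97 at 24 months. In the 12-month-old mice 3 values lay above every 3-month value, and all 5 lay above the 3-month median. The mean was 2.45 ± 0.98 FPKM (SD, n = 5) at 3 months, 4.71 ± 1.49 at 12 months and 3.35 ± 0.935 at 24 months. The difference of 12 from 3 months was 0.73 ± 0.23 (SE) in log2(FPKM + 1), and had the smallest adjusted p of any member (0.199 by limma). Its unadjusted p was 0.0110 and its exact permutation p was 0.0397. At 24 months it was 0.35 (95% CI -0.12 to 0.83, adjusted p = 0.495).

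Lyz2, of the phagocytic and lysosomal members, encodes lysozyme M, an enzyme that cleaves bacterial cell walls and that neutrophils also carry. Its FPKM was 3.52, 10.2, 24.8, 8.19 and 4.44 at 3 months, 42.5, 10.5, 24.6, 20.8 and 25.6 at 12 months, and 17.5, 10.9, 5.82, 16.9 and 21 at 24 months. A single 3-month-old mouse (replicate 7) was as high as most of the 12-month-old mice, while the other 4 stayed at or below 10.2 FPKM.

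The Lyz2 mean was 10.2 ± 8.60 FPKM (SD, n = 5) at 3 months, 24.8 ± 11.5 at 12 months and 14.4 ± 6.02 at 24 months. The difference of 12 from 3 months was 1.36 ± 0.49 (SE) in log2(FPKM + 1), or 2.57-fold in FPKM + 1, with an adjusted p of 0.254 by limma. Its unadjusted p was 0.0206 and its exact permutation p was 0.0476. Without 1 mouse at a time this value lay between 1.11 and 1.74. At 24 months it was 0.63 (95% CI -0.47 to 1.74, adjusted p = 0.611). The paralogue Lyz1, whose reads could be confused with those of Lyz2, had a median of 0.124 FPKM and a maximum of 0.896.

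Cd68 encodes a lysosomal glycoprotein of phagocytes. It was listed at 0.212, 0.193, 0.0112, 0.937 and 0.252 FPKM at 3 months, 0.204, 0.550, 0.170, 0.261 and 0.0857 at 12 months, and 0.919, 0.0096, 0.0586, 0.0893 and 0.0890 at 24 months. In each of the 3- and 24-month groups 1 mouse stood far above the others. The differences from 3 months were -0.049 at 12 months (95% CI -0.42 to 0.32) and -0.11 at 24 months (95% CI -0.59 to 0.37), and without replicate 8 of 3 months they turned to 0.098 and 0.038. With a pseudocount of 0.1 FPKM they were -0.011 and -0.51.

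Mrc1 and Cd163 encode scavenger receptors of tissue-resident macrophages, Mrc1 for mannose-bearing glycoproteins and Cd163 for complexes of haptoglobin with haemoglobin. Mrc1 was at 1.49, 0.830, 1.67, 0.341 and 1.53 FPKM at 3 months, 2.43, 2.72, 1.53, 1.56 and 1.37 at 12 months, and 1.42, 1.40, 1.13, 1.28 and 1.19 at 24 months. The 24-month-old mice had the narrowest spread (SD of 0.124 FPKM, against 0.566 and 0.611), and all 5 lay below the median of the 12-month-old mice. Mrc1 differed between 24 and 12 months by -0.33 ± 0.14 (SE) in log2(FPKM + 1), with an unadjusted p of 0.0442, an exact permutation p of 0.0238 and an adjusted p of 0.764 by limma. Between 12 and 3 months it differed by 0.45 (95% CI -0.052 to 0.95, adjusted p = 0.405). With a pseudocount of 0.1 FPKM these Mrc1 differences were -0.50 and 0.78. Cd163 stayed between 0.0463 and 0.258 FPKM in the 15 mice, and its 3 differences between ages had confidence intervals within -0.14 and 0.14 on the log2(FPKM + 1) scale, which narrows differences at such a low level. With a pseudocount of 0.1 FPKM they were 0.20 for 12 against 3 months, -0.00044 for 24 against 3 months and -0.20 for 24 against 12 months.

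Cd14 and Fcgr1 encode receptors for foreign and opsonised material: CD14 hands bacterial lipopolysaccharide to TLR4, and FCGR1 binds monomeric IgG. Cd14 was listed at 0 in 4 mice, of which 2 were 12 and 2 were 24 months old, and its highest value was 0.252 FPKM. Its group means were 0.0877 ± 0.0455 FPKM (SD, n = 5) at 3 months, 0.114 ± 0.127 at 12 months and 0.0456 ± 0.0571 at 24 months, and the unadjusted p-values of its 3 differences were 0.190 or more. With a pseudocount of 0.1 FPKM the Cd14 differences were 0.0033 for 12 against 3, -0.41 for 24 against 3 and -0.41 for 24 against 12 months. Fcgr1 was at 0.277, 0.0632, 0.633, 0.278 and 0.434 FPKM at 3 months, 0.701, 0.701, 0.699, 0.401 and 0.555 at 12 months, and 0.432, 0.645, 0.483, 0.268 and 1.18 at 24 months. At 12 months 3 of 5 values lay above every 3-month value. The Fcgr1 difference was 0.28 ± 0.12 (SE) at 12 months, with an unadjusted p of 0.0362, and 0.25 (95% CI -0.10 to 0.60) at 24 months, with adjusted p-values of 0.310 and 0.516 by limma. With a pseudocount of 0.1 FPKM the Fcgr1 differences were 0.84 and 0.72 (adjusted p = 0.366 and 0.510 by limma).

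Counted together, 0 of 10 members had an adjusted p under 0.05 in limma for 24 against 3 months, against 1.22% of the 31755 genes tested. An unadjusted p under 0.05 was reached by 1 of 10 members (Itgam, higher), against 14.9% of all genes, and the values of the ages did not overlap in 0 of 10, against 4.73%. An F test with a library covariate called 0 of all genes in this comparison and so says nothing of the members. For 12 against 3 months 0 of 10 members were called, against 0.25% of 31637 genes. There 4 of 10 had an unadjusted p under 0.05, all higher, against 14.3% of all genes in either direction and 11.4% higher. Again 0 of 10 had ages without overlap, against 4.11%.

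For 24 against 12 months 0 of 10 were called, against 0.0031% of 32282 genes. An unadjusted p under 0.05 was reached by 1 of 10 (Mrc1, lower), against 6.43%, and no member separated the ages, against 1.07%. These comparisons share mice, so that the 3-month-old mice enter the first and the second, and the 12-month-old mice the second and the third. The count of 1 of 10 at 24 months is close to the background in both comparisons. A p that misses the threshold does not show that a gene was unchanged.

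**Figure D2:**
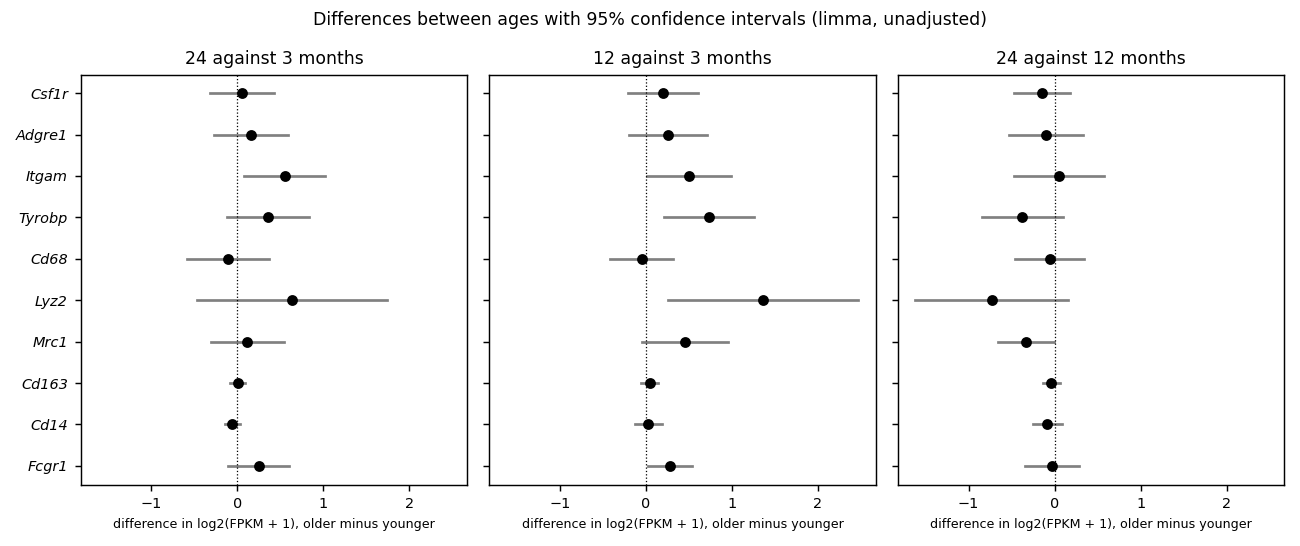
Difference in log2(FPKM + 1) of each macrophage gene between ages (x axis, older minus younger), with points for the estimate and bars for the unadjusted 95% confidence interval from limma (5 mice per age). Intervals leave out 0 for Itgam at 24 against 3 months, for Tyrobp, Lyz2, Fcgr1 and Itgam at 12 against 3 months, and for Mrc1 at 24 against 12 months.

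The median difference of the 10 members was 0.14 in log2(FPKM + 1) for 24 against 3 months (8 positive), 0.27 for 12 against 3 months (9 positive) and -0.092 for 24 against 12 months (1 positive). Over all genes tested the medians were 0.020, 0.022 and -0.0013, and 63.0%, 64.0% and 48.6% of the differences were positive. Among genes with a mean of at least 1 FPKM the medians were 0.051, 0.076 and -0.024. Dividing the FPKM by median-of-ratios size factors, which were 0.898 to 0.967 at 3 months and 0.995 to 1.09 later, moved the median of these genes by -0.098, -0.12 and 0.017. Under these factors Tyrobp kept a difference of 0.63 at 12 months and Lyz2 of 1.24, whereas Csf1r at 24 against 3 months turned from 0.050 to -0.055.

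Whether the members kept their proportions was tested as the ratio of FPKM + 1 of each to that of Csf1r within a library (9 ratios per pair of ages, exact permutation tests, two-sided, unadjusted, smallest possible p of 0.00794). Tyrobp relative to Csf1r was higher at 12 than at 3 months by 0.53 in log2 (exact permutation p = 0.0159), and Itgam relative to Csf1r was higher at 24 than at 3 months by 0.50 (exact permutation p = 0.0159). The other 25 ratios had p-values of at least 0.0952. For Fcgr1, Cd68, Cd163 and Cd14, with medians of 0.483 FPKM or less, the added 1 outweighs the level. Their ratios largely follow Csf1r itself and can say little of their proportions. With annotated Csf1r transcripts alone as denominator the same ratios gave exact permutation p-values of 0.127 and 0.905.

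A large part of the Csf1r signal lay outside its annotated transcripts. The sum took in 8 assembled splice isoforms (class code j) beside 2 annotated ones. The assembled isoforms began up to 9146 bases upstream of the first start of the 2 annotated transcripts. A later annotation starts the gene further upstream than these 2, though still downstream of the starts of the assembled isoforms. The share of the assembled isoforms in the Csf1r signal was 66.1% at the lowest, 79.7% at the median and 97.5% at the highest. The annotated transcripts had 1.35 ± 0.878 FPKM (SD, n = 5) at 3 months, 1.71 ± 1.07 at 12 months and 2.26 ± 1.06 at 24 months. The assembled ones had 7.75 ± 2.35, 8.79 ± 1.49 and 7.06 ± 1.23. From annotated transcripts alone, the difference of 24 from 3 months was 0.47 and that of 24 from 12 months 0.27, where the full sum gave -0.15. The 3′ end of the gene overlaps Hmgxb3 on the opposite strand, which had a median of 7.64 FPKM.

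The FPKM of Itgam also depended on how reads were assigned to its 6 annotated transcripts. In replicate 33 of 24 months, 50.6% of its FPKM came from the 2 shortest transcripts, of 338 and 349 bases, against 0% to 14.8% in the other 14 mice. Short transcripts weigh more in FPKM, and in aligned bases per aligned Mb this mouse had 5.23, below 3 of the other 24-month-old mice. Measured as aligned bases per aligned Mb, Itgam was 3.65 ± 1.46 (SD, n = 5) at 3 months, 7.31 ± 3.40 at 12 months and 6.64 ± 2.6 at 24 months. The differences from 3 months on this scale were 0.81 and 0.71 in log2(value + 1), with adjusted p-values of 0.275 and 0.275. A read-through transcript that later annotation gives to Gm49368 held 17% of the Itgam FPKM.

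The other members were simpler, with 1 to 3 annotated transcripts each and no assembled isoform in the sum. Lyz2 had 1 transcript (chr10:117277331-117282321, minus strand, 4 exons), and the main transcript of Adgre1 (chr17:57358686-57483529, plus strand, 22 exons) held 97.9% of its FPKM. Tyrobp (chr7:30413760-30417585, plus strand) divided evenly between 2 transcripts of 49.5% and 47.7%. A 2-exon transcript at the 3′ end of Mrc1 held 12.0% of that gene. At Cd14 a single-exon transcript of class code e, a class for possible unspliced precursor that the rule leaves out, reached a median of 0.267 FPKM and a maximum of 2.35, above the annotated transcript in 10 of 15 mice. The low level of Cd14 thus also depends on the class rule. With all class codes summed, the Cd14 difference of 12 from 3 months was 0.25 (adjusted p = 0.739 by limma), against 0.028 in the main sum. That of 24 from 3 months was -0.032 (adjusted p = 0.969 by limma), against -0.058.

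**Figure D3:**
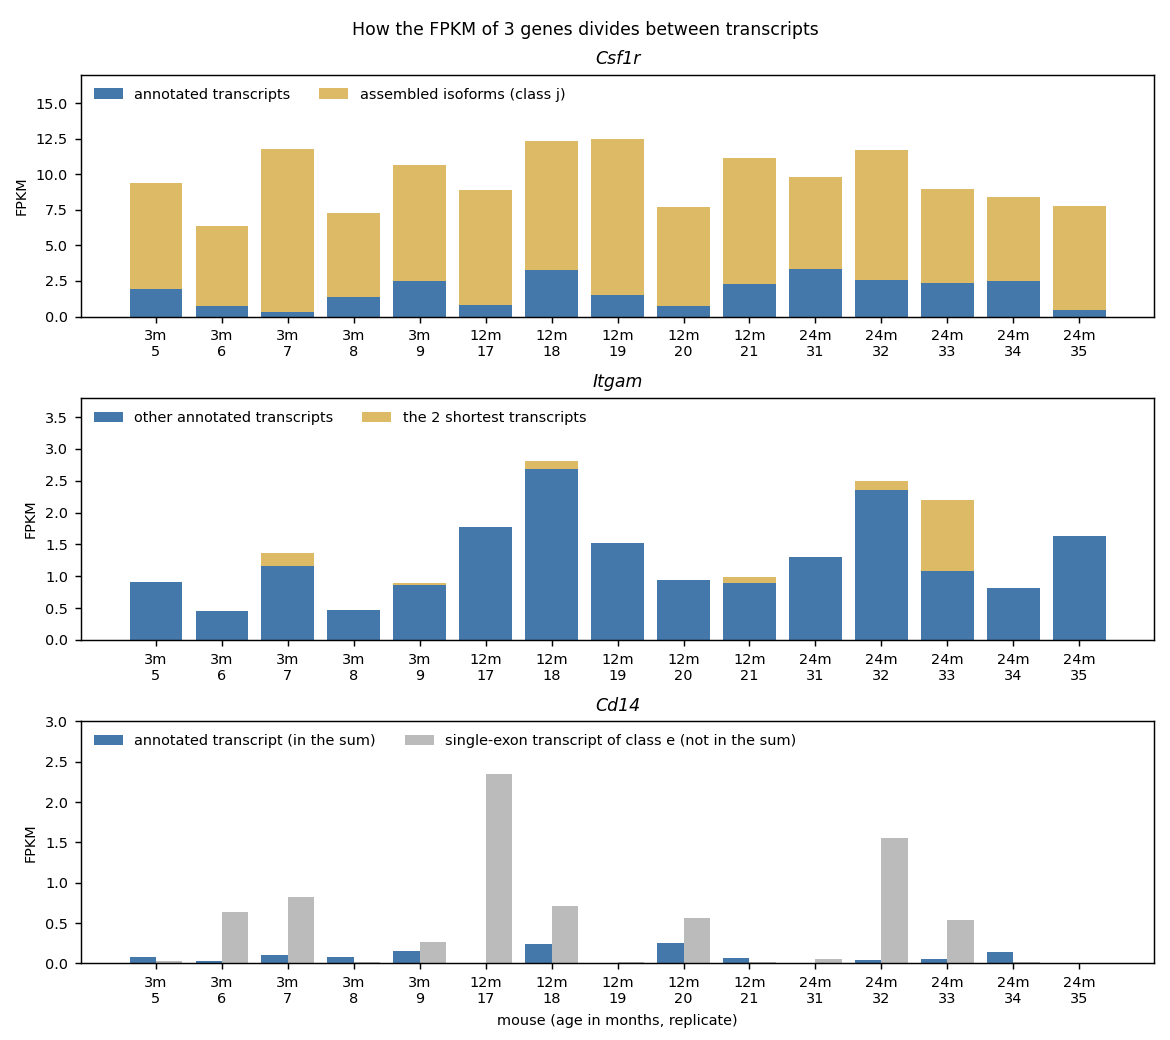
FPKM per mouse (y axis, x axis by age and replicate) of Csf1r split into annotated and assembled transcripts, of Itgam split into its 2 shortest and its other transcripts, and of Cd14 beside a single-exon transcript outside its sum. Assembled isoforms carry at least 66.1% of Csf1r in every mouse, and the short transcripts stand out for Itgam in replicate 33 of 24 months.

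Circular RNAs, in which an exon end is joined to an upstream exon start, were listed for 3 members, with 4 of the 11929 circles in the file. That of Csf1r spans 6 exons and had an estimated count of 424 to 891 per mouse. Its FPKM was 13 ± 2.69 (SD, n = 5) at 3 months, 15.3 ± 1.5 at 12 months and 13.1 ± 1.6 at 24 months, and the ages overlapped. The median of all circular RNAs was 9.40 FPKM. The circles of Adgre1 had medians of 3.09 and 3.40 FPKM, and that of Itgam had 0.916 ± 0.398, 1.71 ± 0.661 and 1.27 ± 0.711 at the 3 ages. These values are given without a test.

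Several members were high or low in the same mice of an age. Among the 3-month-old mice replicate 6 was above the mean of its age in 1 of 10 members and replicate 8 in 2, whereas replicate 7 was above it in 9 and replicate 9 in 8. Replicate 18 at 12 months (8 of 10) and replicate 32 at 24 months (7 of 10) were the highest of their ages. No such count was made over all genes. Replicates 6 and 8 of 3 months were also low in other lists and had the lowest depths, 5.59 and 5.03 Gb. Their red blood cell sums were 517 and 486 FPKM, against 1145 to 1390 in the other mice of that age. Their pan-leukocyte sums were 12.6 and 17.6 FPKM, against 24.0 to 35.8. For tubule and podocyte genes replicate 6 had the highest sum of that age (3264 FPKM) and replicate 8 the lowest (2742 FPKM). The part of depth or of other cells was not tested. After the mean of its age was subtracted from every mouse, the log2 level of Csf1r went with that of Tyrobp (Pearson r = 0.716, Spearman rho = 0.628, n = 15 mice, permutation p = 0.00985 and 0.0223, adjusted 0.0759 and 0.114 over 9 relations). It went with Itgam at r = 0.637 and rho = 0.591 (permutation p = 0.0169 and 0.0254, adjusted 0.0759 and 0.114).

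Without the 2 mice farthest from the median of Csf1r these r were 0.646 and 0.534, and with annotated Csf1r transcripts alone 0.330 and 0.102. None of the 9 relations passed after adjustment. Lyz2 and Cd68 did not go with Csf1r (r = -0.125 and -0.171). The within-age SD in log2(FPKM + 1) was 0.80 for Lyz2, against 0.070 to 0.37 for the other members, on a scale that compresses levels well below 1 FPKM. Relative to the mean FPKM of 15 mice the SD was 63.6% for Lyz2, 111% for Cd68, 101% for Cd14 and 20.3% to 51.4% for the other members.

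**Figure D4:**
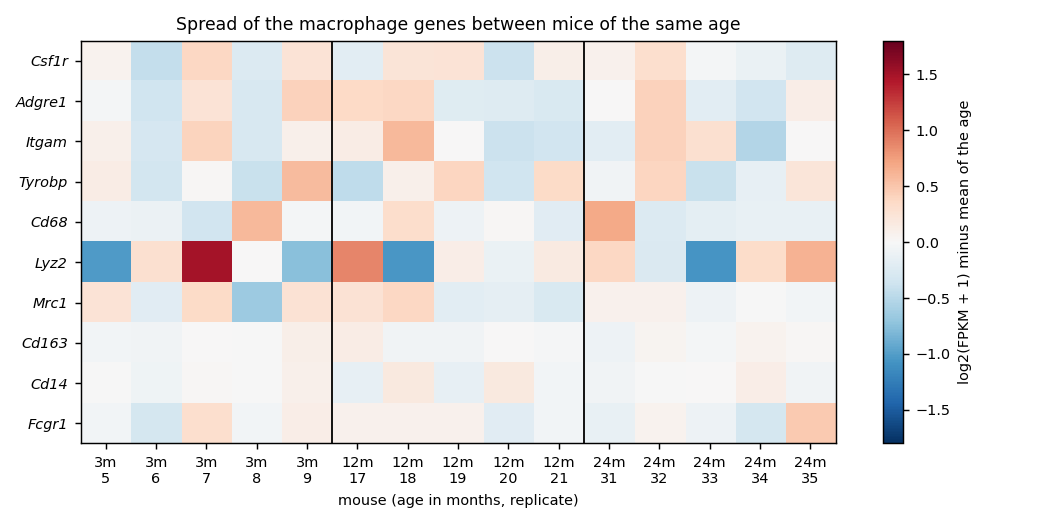
Deviation of log2(FPKM + 1) from the mean of the age (colour) for each macrophage gene (rows) in each mouse (columns, by age and replicate). Replicates 7 and 9 of 3 months and 18 of 12 months are above their age in most rows, and the extremes are in Lyz2, which reaches 1.49 in replicate 7 of 3 months.

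The genes whose log2 level was most like the mean of the scaled members, with each age centred, were read from 13446 genes with a mean of at least 1 FPKM over the 15 mice. Among the highest r were 0.910 for Pld4, 0.902 for Plac8, a gene of monocytes, and 0.898 for Pik3ap1. Apbb1ip, Nckap1l, Myo1f, C4b, Icam1 and Kif9 followed, with r between 0.845 and 0.889. The median over all genes was -0.019. These r describe 15 mice and were not tested. Of the members, Adgre1 followed that mean most closely (r = 0.925), and Cd68 (-0.127) and Lyz2 (0.0679) did not. The mean holds each member itself, which raises the r of members, so these are not comparable with the r of other genes.

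Of 28 other macrophage genes, 1 rose in 24- against 3-month-old mice at an adjusted p under 0.05 and 6 were higher at an unadjusted p under 0.05, with a median difference of 0.18 and 21 positive. Over all genes tested 1.22% were called, 11.4% were higher at an unadjusted p under 0.05 and 63.0% were positive. For 12 against 3 months 0 were called and 9 were higher at an unadjusted p under 0.05, with a median of 0.32 and 23 positive, against 0.25% called, 11.4% higher and 64.0% positive over all genes. Irf8 rose from 4.76 ± 0.820 FPKM (SD, n = 5) at 3 months to 9.80 ± 2.45 at 24 months without overlap, by 0.89 ± 0.16 (SE) in log2(FPKM + 1) (adjusted p = 0.0346 by limma). That call was lost in 8 of 10 fits that left out 1 mouse, and kept only without replicate 32 or 34 of 24 months, with adjusted p-values of 0.0305 to 0.0778 over the 10 fits. The difference in these fits was 0.77 to 0.97. Of 10 fits with other processing, 2 also lost the call. Spi1 was at 0.549 to 1.09 FPKM at 3 months, 1.39 to 2.70 at 12 months and 1.39 to 2.49 at 24 months, again without overlap with 3 months, and its adjusted p-values were 0.0844 and 0.0672.

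The ligands and partners of the receptors were also read. In the list of 6 colony-stimulating factors, IL-34 and their receptors none was called. Csf1 was at 2.52 ± 0.674 FPKM (SD, n = 5) at 3 months, 4.36 ± 0.875 at 12 months and 3.60 ± 1.08 at 24 months, a difference of 0.61 at 12 months (unadjusted p = 0.00414, adjusted p = 0.139 by limma). Csf3, which encodes the granulocyte factor, was at 0.0872 FPKM or less in every mouse. Of 9 genes of the TYROBP pathway none was called. Clec5a, a receptor that signals through DAP12, was at 0.0905 ± 0.0439 FPKM at 3 months, 0.214 ± 0.0640 at 12 months and 0.172 ± 0.0294 at 24 months (adjusted p = 0.147 and 0.146 against 3 months). Plcg2, an enzyme downstream of SYK, differed by -0.28 at 24 against 3 months (adjusted p = 0.329).

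Of 8 genes around the Fc receptors and CD14 none was called. Fcer1g, the Fc receptor gamma chain with which FCGR1 pairs, was at 1.92 ± 0.777 FPKM (SD, n = 5) at 3 months, 3.10 ± 0.600 at 12 months and 3.49 ± 1.27 at 24 months, with unadjusted p-values of 0.0190 and 0.0190 against 3 months and adjusted p-values of 0.247 and 0.221 by limma. Fcer1g is also among the 28 macrophage genes. Ticam1, an adaptor of TLR4, ranged from 0 to 8.83 FPKM within the 12-month-old mice.

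Several members are not particular to macrophages, so markers of other cells were read beside them. The 6 pan-leukocyte genes had median differences of 0.59 at 24 and 0.68 at 12 months against 3 months, and none was called, with a summed level of 12.6 to 35.8 FPKM at 3 months, 26.8 to 44.6 at 12 months and 25.0 to 45.8 at 24 months. Coro1a among them was higher by 0.86 at 12 months (adjusted p = 0.0838 by limma) and Ptprc, which encodes CD45, by 0.78 at 24 months (adjusted p = 0.226). The 10 T and B cell genes all had positive differences in both comparisons with 3 months, with sums of 2.6 to 6.72, 6.47 to 24.8 and 7.64 to 16.9 FPKM. For 24 against 3 months 1 of these 10 was called and 6 were higher at an unadjusted p under 0.05, and for 12 against 3 months 0 were called and 5 were higher, to be read against the shares of all genes given for the 28 macrophage genes.

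Neutrophils also express Itgam and Lyz2. The 10 neutrophil genes had sums of 0.308 to 5.32 FPKM at 3 months, 1.26 to 2.97 at 12 months and 1.86 to 3.59 at 24 months, and 2 of the 10 had a median of 0. Of these genes 5 had a median under 0.1 FPKM, and the log2(FPKM + 1) scale narrows differences at such levels. Their median differences were -0.020 at 12 and -0.042 at 24 months. Those of the 9 monocyte genes were 0.035 and 0.075, and those of the 8 dendritic cell genes 0.14 and 0.12. Among the latter, Itgax (CD11c) was higher at 12 and at 24 months by 0.68 and 0.70 (adjusted p = 0.119 and 0.0910). The 6 fibroblast and pericyte genes had medians of 0.62 and 0.35, with sums of 38.1 to 64.4 FPKM at 3 months, 63.0 to 93.8 at 12 months and 52.5 to 79.7 at 24 months. The 5 red blood cell genes had sums of 486 to 1390, 600.3 to 1068 and 260.2 to 1033 FPKM. Median differences at 12 and 24 months against 3 months were 0.058 and 0.13 for 7 endothelial genes, 0.0044 and 0.16 for fat and adrenal genes, and -0.014 and -0.052 for the tubule and podocyte genes. No gene of the lists in this paragraph was called. The part of these cells in the differences of the members was not tested.

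**Figure D5:**
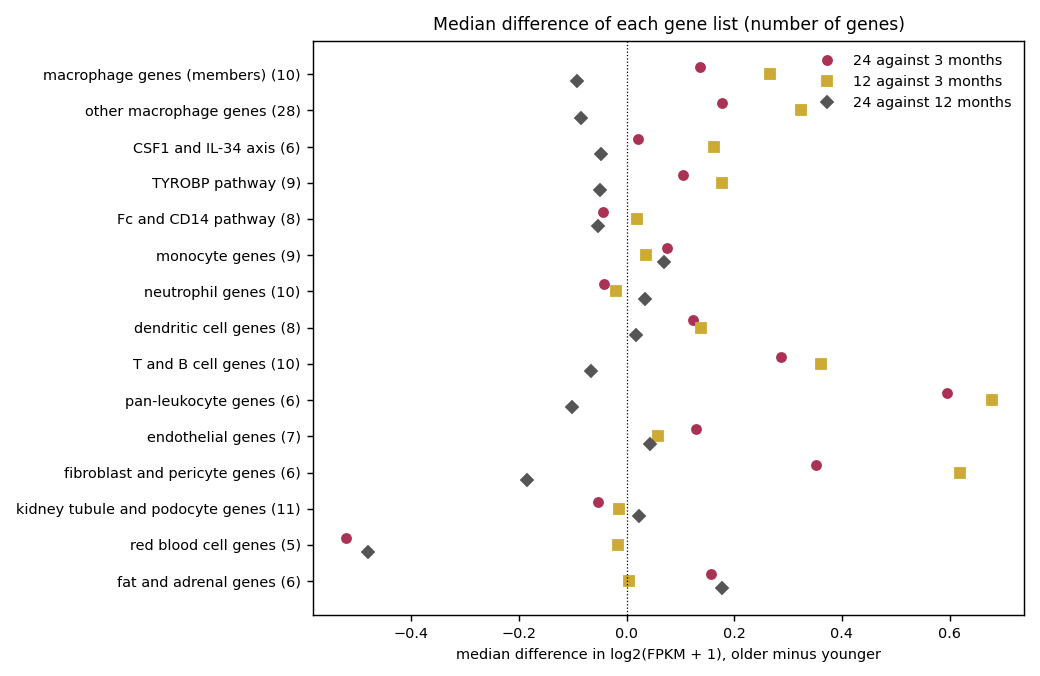
Median difference in log2(FPKM + 1) between ages (x axis, older minus younger) of each gene list (y axis, number of genes in brackets), with 1 symbol per comparison. The macrophage genes lie at 0.14, 0.27 and -0.092, below the pan-leukocyte genes (0.59 and 0.68) in both comparisons with 3 months. Median levels were 0.0706 to 16.9 FPKM in the former and 2.78 to 9.81 FPKM in the latter. The pseudocount of 1 narrows differences of low genes, so lists at unlike levels are not directly comparable.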

How the data were processed

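Kidney RNA of 15 male C57BL/6 mice (C57BL/6J in the paper's methods) was sequenced as 2 × 150-base pairs. Per the labels, ribosomal RNA was depleted and stranded libraries were built, whereas the paper's methods name oligo(dT) selection and pooled RNA. The deposited columns are 1 per mouse, and ages were taken from the age label and the column names, as sample titles begin with 3M at every age. Per the labels the authors used TopHat2 and StringTie. The paper's methods name GRCm38 with Ensembl release 88.

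The authors deposited FPKM and coverage per transcript, which StringTie scales to each library, and estimated counts with FPKM per circular RNA. Expression values were summed per gene over class codes =, c, j and o. The ratio of coverage to FPKM gave the depth, 5.03 to 8.03 Gb of aligned bases, and coverage times length gave a gene's aligned bases. Assignment of reads between isoforms is an estimate, and FPKM shifts with changes in other abundant transcripts.

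Tests used limma 3.58.1 (R 4.3.3, trend) on log2(FPKM + 1) of the 10 mice of each pair of ages, over genes above 0 in at least 1 mouse, with Benjamini-Hochberg adjusted p under 0.05 as a call, checked on simulated data. The pseudocount of 1 understates changes of low genes. Single values had exact permutation tests over 252 assignments, and relations 1e+05 permutations within ages (Python 3.11.15, numpy 2.4.6, pandas 2.3.3, scipy 1.17.1, figures by matplotlib 3.10.9). The p-values of the age comparisons weigh a difference of means against the spread between these libraries. The F test was a linear model with the sum of log2 values per mouse as a covariate.

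The members and lists were chosen with earlier results of these data known. All members were named, with up to 4 genes of each other list (those called, otherwise the smallest p for 24 against 3 months up to 2) and the 10 genes most like the members. Not every gene so chosen is given with a value, and some results are not reported here. Promoters are from RefSeq (GRCm38.p6). Alternatives with all class codes and with aligned bases per aligned Mb were added after seeing the data.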

Additional observations from a re-analysis of the deposited data

Results flagged for a closer look

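Cd68 was the member in which 1 mouse stood far from the others of its age by Dixon's test, in 2 of the 30 groups of 5 mice tested. Replicate 8 of 3 months had 0.937 FPKM, where the other 4 mice had 0.0112 to 0.252. Replicate 31 of 24 months had 0.919 FPKM, where the others had 0.0096 to 0.0893. Chance alone marks about 1 in 20 groups. Cd68 rested on a median of 1.09 kb of aligned bases per mouse, and no reason for these values was tested.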

How the results depend on the processing

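No member was called in any of the 3 comparisons under any alternative that kept the adjusted threshold, with smallest adjusted p-values of 0.158, 0.137 and 0.601. With an unadjusted p under 0.05, 1, 4 and 1 of 10 members passed for 24 against 3, 12 against 3 and 24 against 12 months. The shares over all genes were 14.9%, 14.3% and 6.43%. With an absolute log2 difference above 1 as well 1 of 10 passed (Lyz2, 12 against 3 months), against 0.499% of all genes in that comparison. Leaving out each mouse in turn gave 0 called members throughout.

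Genes called over the whole table numbered 386, 79 and 1. For 24 against 3 months they became 190 with annotated transcripts, 678 with all 15 mice in 1 fit, 239 with a robust prior, 0 in the F test, 4725 at an unadjusted p and 166 with the fold limit, and 109 to 411 without 1 mouse. For 12 against 3 months they became 27 with annotated transcripts, 25 with all class codes, 299 with all 15 mice, 24 with a robust prior, 1 in the F test, 4537 at an unadjusted p and 158 with the fold limit, and 12 to 70 without 1 mouse. For 24 against 12 months they became 3 with a pseudocount of 0.1, 0 among genes of mean FPKM of at least 1, 0 with all 15 mice, 2 in the F test, 2075 at an unadjusted p and 55 with the fold limit, and 1 to 7 without 1 mouse. Size factors changed the split of higher and lower calls from 319 and 67 to 188 and 133 at 24 against 3 months, and from 62 and 17 to 34 and 33 at 12 against 3 months. The causes were not tested.

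Small differences changed sign. For 24 against 3 months Csf1r turned to -0.055, Cd163 to -0.0099 and Plac8 to -0.046 under size factors, Cd163 to -0.00044 with a pseudocount of 0.1, and Plac8 to -0.0014 with annotated transcripts. For 24 against 12 months Csf1r turned to 0.27 with annotated transcripts and Itgam to -0.094 as aligned bases per aligned Mb. Without 1 mouse, the differences for 24 against 3 months ranged from -0.058 to 0.14 for Csf1r, -0.28 to 0.038 for Cd68, -0.046 to 0.20 for Mrc1, -0.014 to 0.027 for Cd163, -0.038 to 0.89 for C4b and -0.11 to 0.26 for Plac8. For 12 against 3 months they ranged from -0.14 to 0.098 for Cd68 and -0.016 to 0.065 for Cd14, and for 24 against 12 months from -0.23 to 0.020 for Cd68, -0.053 to 0.20 for Itgam and -0.15 to 0.048 for Fcgr1.

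No paired analysis was possible because the replicate numbers of the ages are not shared. The levels of Cd14, Cd68 and Cd163 rest on few read pairs, and how far this limits their comparisons was not tested.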
